A study of Mus musculus with 9 samples.

Results

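Crossing over joins homologous chromosomes in meiosis, and several of its proteins belong to the same families as the proteins that repair mismatched bases after DNA replication. Here 9 mouse genes of this machinery were followed at the mRNA level by gene name: Msh4, Msh5, Hfm1, Tex11, Rnf212 and Ccnb1ip1, which act on crossover intermediates, and Mlh3, Pms2 and Exo1, which act in resolution or in mismatch repair. Of the 9, 8 were found among the 24505 genes of the count table, and Rnf212 was not analysed here. The genes were listed by name and not by their values, though earlier results of these data were known when they were chosen.

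The mRNA-seq libraries came from germ cells sorted for EGFP, which the Uchl1 promoter drives in Uchl1-eGfp mice that had been crossed to CD-1 mice. All pups received bis-(dichloroacetyl)-diamine, an inhibitor of retinoic acid (RA) synthesis, by mouth at 100 µg/g from postnatal day (P) 1, and all received 10 µl of RA at 10 µg/µl under the skin on P11. RA-sufficient pups had their last daily dose of the inhibitor on the day before the injection, and RA-deficient pups stayed on daily doses. The 3 groups were In/B spermatogonia at P17 (RA-sufficient pups, n = 3), RA-sufficient preleptotene (PL) spermatocytes at P19 (n = 3) and RA-deficient PL spermatocytes at P19 (n = 3). The In/B cells therefore share the inhibitor before the injection, the injection itself and the transgene with both PL groups. They differ from RA-deficient PL cells in stage, age and continued inhibitor at once. Cells were pooled over littermates, and the methods give 2 or 3 independent preparations for a population, so p-values measure the spread between libraries, which may in part be technical. The stage of the cells rests on the synchronization and on the brightness of EGFP in the sort, bright for In/B spermatogonia and dim for PL spermatocytes. The paper also states, citing earlier work, that purity was checked by running sorted aliquots again. Testes and sorted cells were stained for cell fate markers as well.

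Spermatogonia divide by mitosis, and preleptotene spermatocytes carry out the last DNA replication before meiotic prophase. In prophase, programmed breaks are repaired from the homologous chromosome. MSH4 and MSH5 form the clamp (MutSγ) that holds the joined intermediates, HFM1 is a helicase that prepares them, and TEX11 and the ring finger proteins RNF212 and HEI10, the product of Ccnb1ip1, decide with them which intermediates become crossovers. MLH3 is a subunit of a MutL complex that cuts the joint molecules, PMS2 is a subunit of a MutL complex that directs mismatch repair, and the nuclease EXO1 acts with both complexes.

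Library totals ran from 12612959 to 27042274 counts, and a count of 3, the floor used here, was worth 0.111 to 0.238 CPM, the counts of a gene relative to its scaled library total, far under the level of any of the 8 genes. Values below are CPM scaled by the TMM method over all 9 libraries. Markers of differentiating spermatogonia summed to 1305 to 1693 CPM in In/B cells and to 286 to 383 CPM in RA-sufficient PL cells. RA-deficient PL replicates 1 and 2 had sums of 1396 and 1367 CPM, as in In/B cells, whereas replicate 3 had 329.8 CPM. The growth factor receptor gene Kit showed the split most plainly, at 561, 521 and 20.3 CPM in RA-deficient replicates 1, 2 and 3 against 20.2 to 41.0 CPM in RA-sufficient PL cells. The first 2 of these libraries thus go against their label in this sum. The summed meiotic entry markers put all 3 (5521 to 5767 CPM) above every In/B library (1416 to 2191 CPM). Single markers did not all follow the sums. Dmrtb1 was at 93.5 and 81.8 CPM in RA-deficient replicates 1 and 2, within the RA-sufficient PL range (70.7 to 161.8 CPM). Ccnd2, of the same list, was higher in RA-sufficient PL cells (49.8 to 79.3 CPM) than in In/B cells (16.5 to 23.3 CPM). In RA-deficient PL cells Ccnd2 was at 14.8 to 18.35 CPM. Sohlh2 in RA-deficient replicate 3 was at 102.7 CPM, above every In/B library (79.4 to 79.5 CPM). Rec8 (5.86 to 39.5 CPM) and Stra8 in replicate 3 (81.5 CPM) were not above In/B cells (17.5 to 98.4 and 54.4 to 164.6 CPM). The other meiotic entry markers were higher in all RA-deficient libraries. Results on RA-deficient cells are given below with and without those 2 libraries, a choice made after their marker levels were seen; the lone library left is then assumed to vary as the other group does. RA-sufficient PL replicate 1 also stood apart, with a pachytene marker sum of 992 CPM against 304 and 266 CPM in replicates 2 and 3. In/B replicate 1 differed from In/B replicates 2 and 3, with Stra8 at 54.4 against 164.6 and 150 CPM. Its Rec8 was at 17.5 CPM against 98.4 and 96.1 CPM.

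All 9 measured Sertoli cell markers (of 10 listed) were higher in every RA-sufficient PL library than in any other library, and the summed level was 2879 to 3741 CPM there, 67.3 to 352 CPM in In/B cells and 290.2 to 517 CPM in RA-deficient PL cells. Clu made up most of that sum, and the follicle stimulating hormone receptor gene Fshr was at 0 in RA-deficient replicates 1 and 2. The 6 Leydig markers summed to 32.5 to 38.6 CPM in RA-sufficient PL cells, 9.56 to 15.9 CPM in In/B cells and 12.0 to 24.1 CPM in RA-deficient PL cells, with Insl3 at 0 in 8 of the 9 libraries, and spermatid markers summed to at most 2.87 CPM. Peritubular and stromal markers went the other way, with sums of 46.6 to 50.4 CPM in RA-sufficient PL cells. Their sums were 57.8 to 79.6 CPM in In/B cells and 84.95 to 102.3 CPM in RA-deficient PL cells. The part of these marker differences in the results below was not tested.

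**Figure D1:**
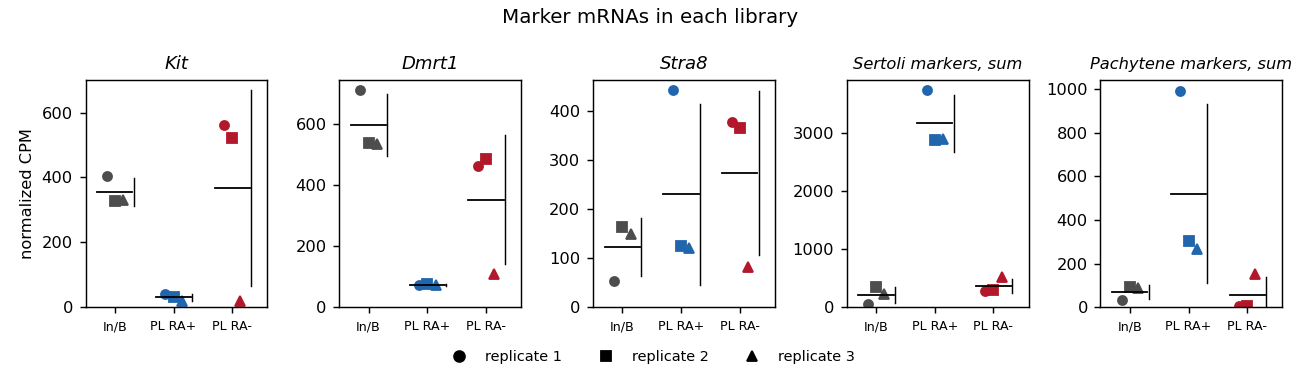
Marker mRNA levels in normalized CPM for each of the 9 libraries, by group; points are libraries with a shape for each replicate, bars are group means and thin lines are the SD, which stop at 0. RA-deficient PL (PL RA-) replicates 1 and 2 sit with In/B cells for Kit at 561 and 521 CPM, and the Sertoli sum is highest in the 3 RA-sufficient PL (PL RA+) libraries.

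Between In/B spermatogonia and RA-sufficient PL spermatocytes, 4 of the 8 genes rose (Msh5, Hfm1, Msh4 and Pms2), 2 fell (Exo1 and Tex11) and 2 did not pass (Mlh3 and Ccnb1ip1). A gene was called when its log2 fold change was beyond 1 in size and its adjusted p was below 0.05 in the quasi-likelihood test of edgeR, where p-values were adjusted by Benjamini-Hochberg over all genes tested. By this rule 45.4% of all tested genes were called, 26.1% higher and 19.3% lower, so that the 6 of 8 stand against a transition in which a large share of all genes was called. The 3 libraries of each group did not overlap for 7 of the 8 genes, and for 71.5% of all genes. In RA-deficient PL cells Msh5, Hfm1, Msh4 and Pms2 rose above In/B cells and Mlh3 fell, where 23.2% of all genes were called (11.4% higher and 11.8% lower), and 6 of the 8 genes did not overlap, as for 54.6% of all genes. Both contrasts use the same In/B libraries. Without RA-deficient replicates 1 and 2, Msh5, Hfm1, Msh4 and Pms2 were still called higher. These are bulk samples, in which a larger share of cells with a transcript and more transcript per cell cannot be told apart.

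The largest changes were those of the clamp and the helicase. Msh5 (mm9 chr17:35165550-35183690), one partner of MutSγ, stood at 16.5, 21.3 and 19.1 CPM in the 3 In/B libraries, at 235, 483 and 569 CPM in RA-sufficient PL cells, and at 228, 229 and 379 CPM in RA-deficient PL cells. Every PL library lay above every In/B library, by a margin far wider than the spread among the In/B libraries, and the PL groups overlapped each other. Msh5 rose 23.5-fold in RA-sufficient PL cells (log2 fold change 4.55, SE 0.32, edgeR adjusted p = 1.64e-05) and 16.5-fold in RA-deficient PL cells (4.05, SE 0.24, adjusted p = 4.76e-05). Without RA-deficient replicates 1 and 2 the second log2 fold change of Msh5 was 4.40 (edgeR adjusted p = 0.000216).

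Hfm1 (mm9 chr5:107269211-107355340) followed Msh5 closely. Its mRNA was at 25.0, 25.2 and 22.9 CPM in In/B cells, at 341, 531 and 529.7 CPM in RA-sufficient PL cells and at 242, 268 and 567 CPM in RA-deficient PL cells. Again the In/B libraries were well below all others, and the highest and the lowest PL values both came from RA-deficient cells: replicate 3 was high, and replicates 1 and 2, the ones rich in Kit, were low. Hfm1 rose 19.9-fold with RA (log2 fold change 4.32, SE 0.20, edgeR adjusted p = 1.03e-05) and 16.5-fold without it (4.05, SE 0.34, adjusted p = 0.000134; 4.61 and adjusted p = 0.000149 without replicates 1 and 2).

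Msh4 (mm9 chr3:153520111-153569102), the other MutSγ partner, was less abundant, also per length of transcript. It was measured at 7.55, 7.86 and 8.93 CPM in In/B cells, at 29.7, 56.4 and 64.8 CPM in RA-sufficient PL cells and at 27.9, 33.6 and 57.1 CPM in RA-deficient PL cells. No PL library reached down to the In/B range, and within the RA-sufficient group replicate 1 was lowest, as it was for Msh5 and Hfm1. Msh4 rose 6.44-fold with RA (log2 fold change 2.69, SE 0.30, edgeR adjusted p = 9.87e-05) and 5.46-fold without it (2.45, SE 0.31, adjusted p = 0.000775; 2.89 and adjusted p = 0.000614 without replicates 1 and 2). The 95% intervals of Msh4 (2.01 to 3.36) and Msh5 (3.82 to 5.29) in RA-sufficient cells did not overlap, so the changes of these partner mRNAs were unequal in size; the difference itself was not tested.

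**Figure D2:**
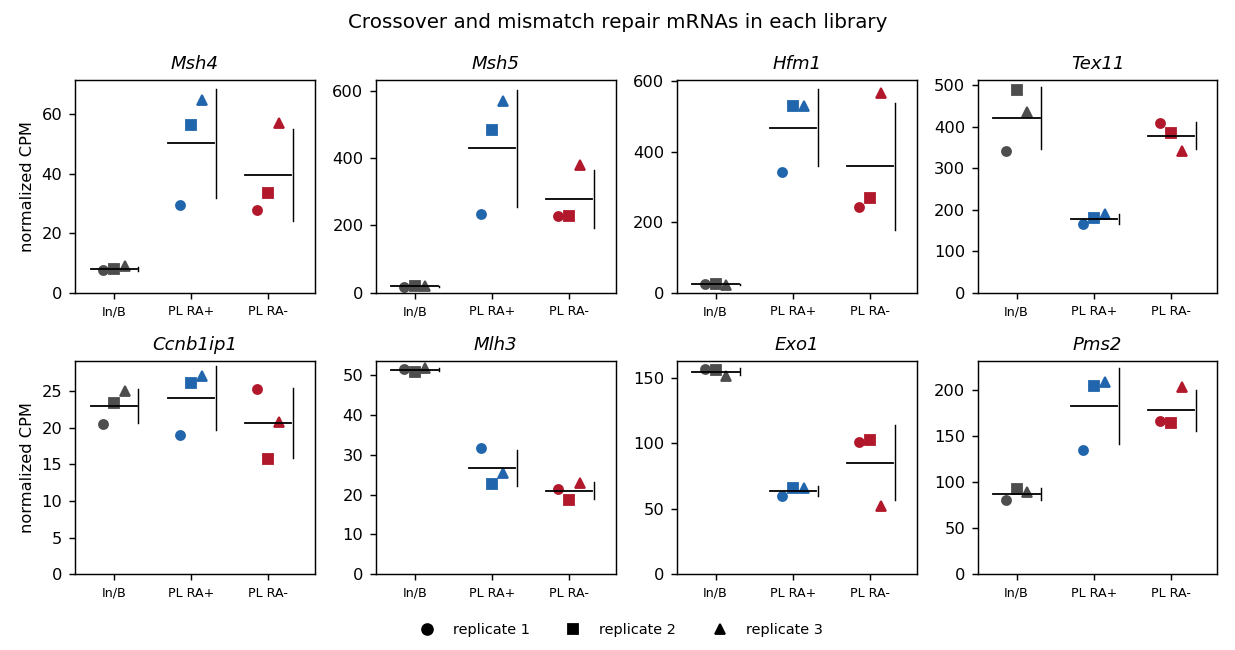
Levels of the 8 mRNAs in normalized CPM (each panel has its own axis from 0) in In/B, RA-sufficient PL (PL RA+) and RA-deficient PL (PL RA-) libraries; points are libraries with a shape for each replicate, bars are group means and thin lines are the SD. Msh4, Msh5, Hfm1 and Pms2 are higher in all 6 PL libraries than in the 3 In/B libraries, Mlh3 is lower in all 6, and Tex11 is low in RA-sufficient PL cells alone.

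The sequences before the start sites of the 3 most raised genes are shown because these genes moved together, with that of Mlh3, which did not rise, for contrast. They are RefSeq promoter sequences that were found without a mismatch in mm9, and all 4 are written 5′ to 3′ on the minus strand and end at the base before the RefSeq start: Hfm1 at chr5:107354910-107355159, Msh5 at chr17:35183568-35183657, Msh4 at chr3:153567856-153568105 and Mlh3 at chr12:86611550-86611799. Capitals mark matches, on either strand, to CCTCAG (the core of the site of STRA8 and MEIOSIN, the RA-induced pair that turns on meiotic genes), TAACNG (the core of the MYB site), AGGTCA (the nuclear receptor element), CACGTG (the E-box) and TTCCCGC (an E2F site).
Hfm1: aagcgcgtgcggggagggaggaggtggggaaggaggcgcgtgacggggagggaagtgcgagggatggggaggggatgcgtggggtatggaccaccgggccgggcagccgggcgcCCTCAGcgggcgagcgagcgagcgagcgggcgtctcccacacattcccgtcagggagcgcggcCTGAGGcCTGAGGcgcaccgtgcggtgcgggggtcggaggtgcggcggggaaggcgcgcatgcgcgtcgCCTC
Msh5: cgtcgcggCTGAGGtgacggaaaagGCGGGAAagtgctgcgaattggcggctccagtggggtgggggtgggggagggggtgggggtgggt
Msh4: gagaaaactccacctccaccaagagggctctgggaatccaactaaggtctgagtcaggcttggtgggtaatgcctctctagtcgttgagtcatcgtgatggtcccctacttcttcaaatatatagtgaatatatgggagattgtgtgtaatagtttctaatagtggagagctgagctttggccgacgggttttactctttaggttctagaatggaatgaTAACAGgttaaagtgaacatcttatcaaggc
Mlh3: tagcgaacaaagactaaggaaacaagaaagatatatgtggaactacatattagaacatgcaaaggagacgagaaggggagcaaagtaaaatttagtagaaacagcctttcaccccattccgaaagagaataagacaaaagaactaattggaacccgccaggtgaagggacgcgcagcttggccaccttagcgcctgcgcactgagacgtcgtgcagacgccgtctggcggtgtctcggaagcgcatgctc
The Hfm1 sequence held 4 matches to CCTCAG, with their first bases at -136, -73, -66 and -4 from the start, and the last runs past it, so that only 4 of its letters are printed. The Msh5 sequence held 1 such match at -82 and 1 E2F match at -65. The Msh4 sequence held a MYB match at -31 and no CCTCAG, and none of the 5 motifs was found in that of Mlh3. Ccnb1ip1, which did not rise either and is not printed, held 1 match to CCTCAG, 1 to TAACNG and 2 to AGGTCA. Of the 6 genes with a promoter in the table (Exo1 and Tex11 had none there), 4 held CCTCAG (Hfm1, Msh5, Pms2 and Ccnb1ip1), 2 held TAACNG, 2 held AGGTCA, 1 held TTCCCGC and 0 held CACGTG in the searched window of 250 bases before to 50 after the start, of which only the 90 bases before the start are printed for Msh5. Among all 32851 promoters the shares were 26.8% for CCTCAG, 23.3% for TAACNG, 16.3% for AGGTCA, 4.60% for TTCCCGC and 7.15% for CACGTG, and 35 promoters (0.107%) held at least 4 CCTCAG matches, a count made after those of Hfm1 were seen. In mm9 the Hfm1 and Msh4 windows lie within the annotated gene spans but in no exon of them, and 13 bases of the Msh5 window lie in an annotated exon of that gene.

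The crossover factors Tex11 and Ccnb1ip1 did not share this rise. Tex11, on the X chromosome (mm9 chrX:98033987-98255006), encodes a scaffold that binds recombination and synapsis proteins. Its mRNA was at 341, 489 and 435 CPM in In/B cells, at 166, 180.1 and 189 CPM in RA-sufficient PL cells and at 408, 386 and 343 CPM in RA-deficient PL cells. The RA-sufficient libraries formed a tight group below all others, and the RA-deficient libraries lay inside the In/B range. Tex11 fell 2.27-fold from In/B to RA-sufficient PL cells (log2 fold change -1.18, SE 0.14, edgeR adjusted p = 0.000134). In RA-deficient PL cells its log2 fold change from In/B cells was 0.02 (95% interval -0.31 to 0.34, edgeR adjusted p = 0.942), and -0.22 (adjusted p = 0.365) without replicates 1 and 2. The sign of so small a value depends on the scaling of the libraries.

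Ccnb1ip1 (mm9 chr14:51408924-51415403), which encodes the ubiquitin ligase HEI10, was nearly level. It was at 20.5, 23.4 and 25.0 CPM in In/B cells, at 18.99, 26.1 and 27.0 CPM in RA-sufficient PL cells and at 25.3, 15.7 and 20.8 CPM in RA-deficient PL cells, and the 3 groups overlapped. Its log2 fold changes from In/B cells were 0.12 with RA (95% interval -0.34 to 0.58, edgeR adjusted p = 0.609) and 0.01 without it (-0.54 to 0.57, adjusted p = 0.978). A change beyond 1 in either direction thus lay outside both intervals.

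The genes of resolution and mismatch repair went different ways. Mlh3 (mm9 chr12:86575479-86611541), the crossover MutL gene, was at 51.4, 50.9 and 51.8 CPM in In/B cells, at 31.7, 22.7 and 25.5 CPM in RA-sufficient PL cells and at 21.5, 18.6 and 22.9 CPM in RA-deficient PL cells. All PL libraries were below the closely spaced In/B libraries. Mlh3 fell 2.18-fold in RA-deficient PL cells (log2 fold change -1.12, SE 0.17, edgeR adjusted p = 0.00182; -1.09 and adjusted p = 0.00543 without replicates 1 and 2). With RA its log2 fold change of -0.89 (SE 0.17, edgeR adjusted p = 0.00173) did not reach the size required for a call, but without RA-sufficient replicate 1 it was -1.04 (adjusted p = 0.000503) and did.

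Pms2 (mm9 chr5:144670833-144698178), the mismatch repair MutL gene, moved the opposite way. Its values were 80.1, 92.5 and 89.1 CPM in In/B cells, 135, 205 and 208 CPM in RA-sufficient PL cells and 167, 164 and 203 CPM in RA-deficient PL cells. The lowest PL library was still above the highest In/B library. Pms2 rose 2.18-fold with RA (log2 fold change 1.12, SE 0.17, edgeR adjusted p = 0.000573) and 2.29-fold without it (1.19, SE 0.13, adjusted p = 0.00045; 1.29 and adjusted p = 0.00112 without replicates 1 and 2). Its annotated span in mm9 overlaps that of Rsph10b2 by 4275 bp on the same strand and that of Gm17135 by 14733 bp on the opposite strand. Rsph10b2 had no row of its own, so reads in that overlap could come from either gene.

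Exo1 (mm9 chr1:177810909-177841527), the 5′ to 3′ exonuclease of both pathways, was the highest of the 3 per length of transcript in In/B cells and was lower in PL cells. It was at 157, 156 and 152 CPM in In/B cells, at 59.6, 65.8 and 66.3 CPM in RA-sufficient PL cells and at 101, 103 and 52.5 CPM in RA-deficient PL cells. The In/B libraries were above all PL libraries, and within the RA-deficient group the 2 libraries rich in Kit held intermediate levels while replicate 3 was the lowest of the 9. Exo1 fell 2.33-fold with RA (log2 fold change -1.22, SE 0.11, edgeR adjusted p = 4.01e-05). Without RA the log2 fold change of Exo1 was -0.69 (SE 0.25, edgeR adjusted p = 0.0593), which did not pass, and -1.49 (adjusted p = 0.00102) without replicates 1 and 2, which did.

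**Figure D3:**
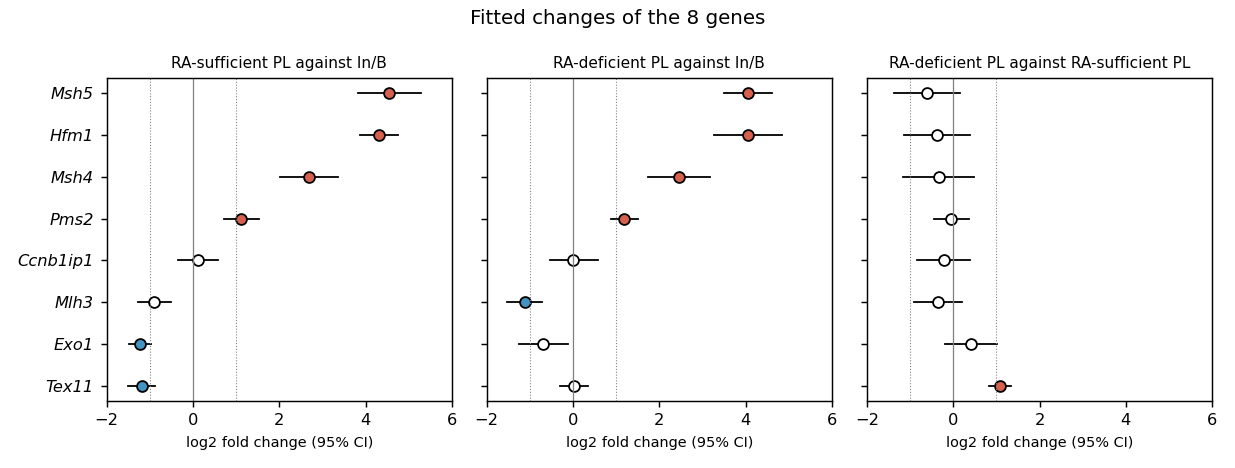
Fitted log2 fold changes of the 8 genes with 95% intervals from edgeR, a panel for each comparison, and lines at 0 and at the size required for a call; red points were called higher, blue points lower, and open points were not called. In the panels against In/B cells Msh5 and Hfm1 lie beyond 4, and in the comparison of the PL groups Tex11 alone is called, at 1.08.

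Levels between genes can be set side by side only per length of transcript. Per kilobase of merged exons, Tex11 was the most abundant of the 8 in In/B cells at 116 CPM per kb, ahead of Exo1 at 28.1, Ccnb1ip1 at 15.2, Pms2 at 10.3 and Mlh3 at 9.26, and the genes that later rose most were the lowest, with Hfm1 at 3.66, Msh5 at 3.43 and Msh4 at 1.98 CPM per kb. In RA-sufficient PL cells the order was Msh5 at 77.7, Hfm1 at 70.3, Tex11 at 49.2, Pms2 at 21.6, Ccnb1ip1 at 15.9, Msh4 at 12.3, Exo1 at 11.6 and Mlh3 at 4.81 CPM per kb. Neighbours in that order such as Msh5 and Hfm1, or Msh4 and Exo1, differed by less than their SD over the libraries. In RA-deficient PL cells Tex11 led again at 105 CPM per kb, followed by Hfm1 at 54.0 and Msh5 at 50.4 CPM per kb, a pair that also differed by less than its SD, and Mlh3 was last at 3.79 CPM per kb. Msh5 and Msh4 act as partners, yet Msh5 mRNA exceeded Msh4 mRNA on this scale in every group.

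Whether PL cells that lacked the second supply of RA differed from those that had it was asked by comparing the PL groups directly. Only Tex11 of the 8 genes was called, and 15.5% of all genes were called in this comparison (4.47% higher and 11% lower in RA-deficient cells). Tex11 mRNA was 2.12-fold higher in RA-deficient PL cells (log2 fold change 1.08, SE 0.11, 95% interval 0.83 to 1.34, edgeR adjusted p = 0.0013), and all 3 RA-deficient libraries were above all 3 RA-sufficient ones; groups did not overlap, in one direction or the other, for 47.4% of all genes. Without RA-deficient replicates 1 and 2 the Tex11 difference was 0.95 (edgeR adjusted p = 0.0146), and with library totals in place of TMM scaling it was 0.90 (adjusted p = 0.00242), both short of the size required for a call. The Sertoli marker sum was lower in these cells and the sum of differentiating markers was higher in 2 of the 3 libraries. The germ cell markers Ddx4, Dazl and Uchl1 summed to 3500 to 4609 CPM in RA-deficient PL libraries. Their sum was 1796 to 2234 CPM in RA-sufficient PL libraries and 4150 to 5235 CPM in In/B libraries. The part of all these markers in the Tex11 difference was not tested.

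For the other 7 genes the intervals of the difference show what these libraries could resolve. The log2 differences of the MutSγ genes, RA-deficient minus RA-sufficient, were -0.61 for Msh5 (95% interval -1.37 to 0.15, edgeR adjusted p = 0.211) and -0.34 for Msh4 (-1.17 to 0.49, adjusted p = 0.522), and that of Hfm1 was -0.38 (-1.15 to 0.40, adjusted p = 0.442), so that a fall by a log2 value of 1 could not be told from no change. Those of Pms2 (-0.04, interval -0.44 to 0.37), Mlh3 (-0.35, interval -0.91 to 0.20) and Ccnb1ip1 (-0.22, interval -0.83 to 0.39) had intervals that did not reach 1 in either direction. Exo1 had 0.42 (interval -0.19 to 1.02, adjusted p = 0.283). Without replicates 1 and 2 the log2 differences of Msh4, Hfm1, Pms2 and Exo1 took the opposite sign (0.18, 0.28, 0.16 and -0.28), and without replicate 3 those of Hfm1 and Exo1 were -0.87 (edgeR adjusted p = 0.0125) and 0.68 (adjusted p = 0.00536).

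**Figure D4:**
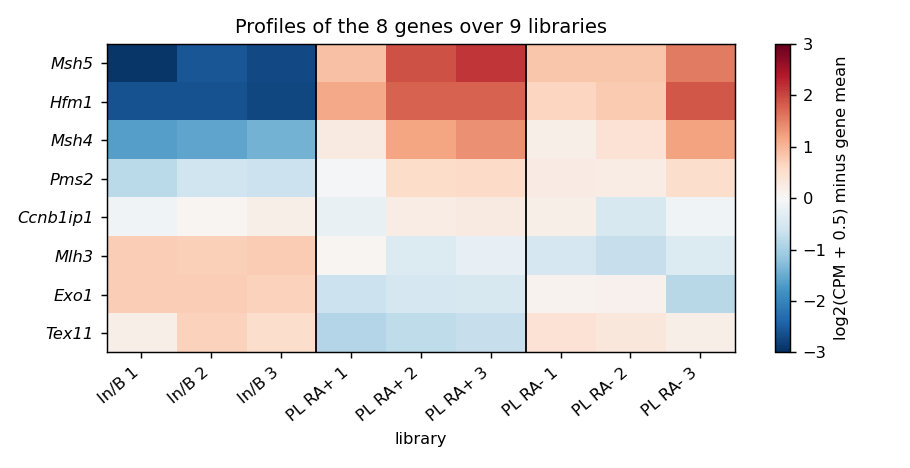
Level of each of the 8 genes in each of the 9 libraries as log2(CPM + 0.5) minus the mean of that gene, as a colour scale. Msh5, Hfm1 and Msh4 change from low to high between In/B and PL libraries, Exo1 and Mlh3 from high to low, and Tex11 is low in the 3 RA-sufficient PL libraries.

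The shapes of the profiles were compared by the root mean square (RMS) difference of log2(CPM + 0.5) over the 9 libraries after each gene was centred on its own mean, ranked over the 9697 genes whose mean reached 10 CPM; a smaller value means a closer shape, and all values share the same libraries. Msh5 and Hfm1 were close to each other, with an RMS difference of 0.226, which made Hfm1 the nearest of all genes to Msh5, with Carns1 next at 0.237. Terb1, whose product tethers meiotic telomeres to the nuclear envelope, was still nearer to Hfm1 at 0.191. Pms2 was near Pcsk7 at 0.0611. The nearest genes to Msh4 were BC049762 (0.145) and Fam228b (0.167), those to Mlh3 were Ndufa5 (0.11) and Uqcc2 (0.121), those to Ccnb1ip1 were Cdk5rap1 (0.102) and Pus10 (0.105), those to Tex11 were BC037034 (0.109) and Papd5 (0.133), and Ppp1ca lay near Exo1 (0.103). Msh5 and Exo1 were far apart at 2.53.

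A wider list of 30 genes of the same pathways held 27 with a row. From In/B to RA-sufficient PL cells 3 of the 27 rose and 10 fell, with a median log2 fold change of -0.51 against 0.0431 over all genes and 0.62 over the 8 genes above, where 26.1% of all genes were called higher and 19.3% lower. From In/B to RA-deficient PL cells 4 rose and 5 fell (median -0.41, against 0.00382 over all genes and 0.60 over the 8), where 11.4% of all genes were called higher and 11.8% lower. Between the PL groups 1 was called, higher in RA-deficient cells, where 15.5% of all genes were called.

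Among crossover regulators, Cntd1, a cyclin-like gene needed to turn intermediates into crossovers, was at 7.94, 16.3 and 20.01 CPM in In/B cells, at 70.7, 47.4 and 47.6 CPM in RA-sufficient PL cells and at 50.2, 46.7 and 58.9 CPM in RA-deficient PL cells. All PL libraries exceeded the In/B libraries, and Cntd1 rose in both PL groups (log2 fold change 1.96 with RA, edgeR adjusted p = 0.000908, and 1.99 without, adjusted p = 0.00257; 2.08 and adjusted p = 0.011 without replicates 1 and 2). Prr19, whose product works with CNTD1, rose in RA-deficient PL cells, from 36.6 to 44.4 CPM in the In/B libraries to 70.5 to 88.3 CPM (log2 fold change 1.15, edgeR adjusted p = 0.00166; 0.84, adjusted p = 0.0164 and no call without replicates 1 and 2). In RA-sufficient PL cells Prr19 was at 41.8 to 43.9 CPM (0.10, edgeR adjusted p = 0.57). The difference between the PL groups was 0.93 (edgeR adjusted p = 0.00757; 0.73 and adjusted p = 0.0533 without replicates 1 and 2), short of the size required. The kinase gene Cdk2, whose product marks crossover sites, was not called in any comparison. Its log2 fold change from In/B cells was 0.63 with RA and 0.07 without it (0.27 without replicates 1 and 2). Between the PL groups Cdk2 was lower in RA-deficient cells, with a log2 difference of -0.67 (edgeR adjusted p = 0.0329), short of the size required. Without replicates 1 and 2 that difference was -0.37. Shoc1, Spo16 and Rnf212b were not analysed here.

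Of other genes for mismatch recognition and MutL complexes, Pms1, a MutL gene, was at 52.6, 53.0 and 47.0 CPM in In/B cells, at 10.97, 12.7 and 8.47 CPM in RA-sufficient PL cells and at 17.6, 20.4 and 5.86 CPM in RA-deficient PL cells. Every PL library was below every In/B library, and Pms1 fell in both PL groups (log2 fold change -2.19 with RA, edgeR adjusted p = 4.24e-05, and -1.63 without, adjusted p = 0.017; -3.04 and adjusted p = 0.000614 without replicates 1 and 2). Msh6 and Msh3, MutS genes that act in the recognition of mismatches, were called in neither PL group, with log2 fold changes of -0.97 with RA and -0.55 without for Msh6 and of -0.41 and -0.52 for Msh3 (-0.71 and -0.74 without replicates 1 and 2, neither of them called). The meiotic MutS genes Msh4 and Msh5 were called higher in both.

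The replication and repair synthesis genes (clamp, clamp loader, polymerase and ligase) made up 5 of the 10 falls with RA, out of 8 genes, and 3 of the 5 without it, where 19.3% and 11.8% of all genes were called lower. The clamp loader genes Rfc1, Rfc2 and Rfc5 fell in both PL groups, with log2 fold changes of -1.48, -1.35 and -2.06 with RA and -1.46, -1.08 and -1.36 without (-1.70, -1.44 and -1.94 without replicates 1 and 2). Pold1, the catalytic subunit gene of DNA polymerase delta, was at 233, 256 and 214 CPM in In/B cells, at 65.5, 43.2 and 46.9 CPM in RA-sufficient PL cells and at 379, 398 and 107 CPM in RA-deficient PL cells. The high RA-deficient values came from the 2 libraries rich in Kit. Pold1 fell with RA (-2.12, edgeR adjusted p = 2.57e-05) and was the 1 gene of the 27 called between the PL groups (2.5, SE 0.48, adjusted p = 0.0121; 1.05 and adjusted p = 0.0397 without replicates 1 and 2). From In/B to RA-deficient PL cells the log2 fold change of Pold1 was 0.50 (edgeR adjusted p = 0.399), and without replicates 1 and 2 it was -1.06 (adjusted p = 0.00283), a fall.

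Among the 6 structure-selective nuclease genes, which cut joint molecules outside the MLH3 route, Eme2 rose (1.58 with RA, edgeR adjusted p = 0.000979, and 1.30 without, adjusted p = 0.0424; 1.61 and adjusted p = 0.0167 without replicates 1 and 2) and Eme1 fell (-1.67, adjusted p = 0.000333, and -1.23, adjusted p = 0.00472; -1.47 and adjusted p = 0.00243 without replicates 1 and 2) in both PL groups. EME1 and EME2 are alternative partners of the nuclease MUS81. Of the 5 genes Blm, Top3a, Rmi1, Rmi2 and Recql4, which encode RecQ helicases and partners of BLM, 2 fell with RA and 0 without it. Over all genes, 19.3% and 11.8% were called lower. Rmi2, the smaller fall, had a log2 fold change of -1.29 with RA and -0.50 without it. Without replicates 1 and 2 the second value of Rmi2 was -1.29. Recql4 was the larger of these falls, from 207, 223 and 210 CPM in In/B cells to 43.8, 39.1 and 39.5 CPM (-2.33, adjusted p = 1.07e-05), and in RA-deficient PL cells it had 129, 115 and 44.2 CPM (-0.98, adjusted p = 0.0565; -2.20 and adjusted p = 0.000481 without replicates 1 and 2), with replicate 3 again next to the RA-sufficient libraries.

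**Figure D5:**
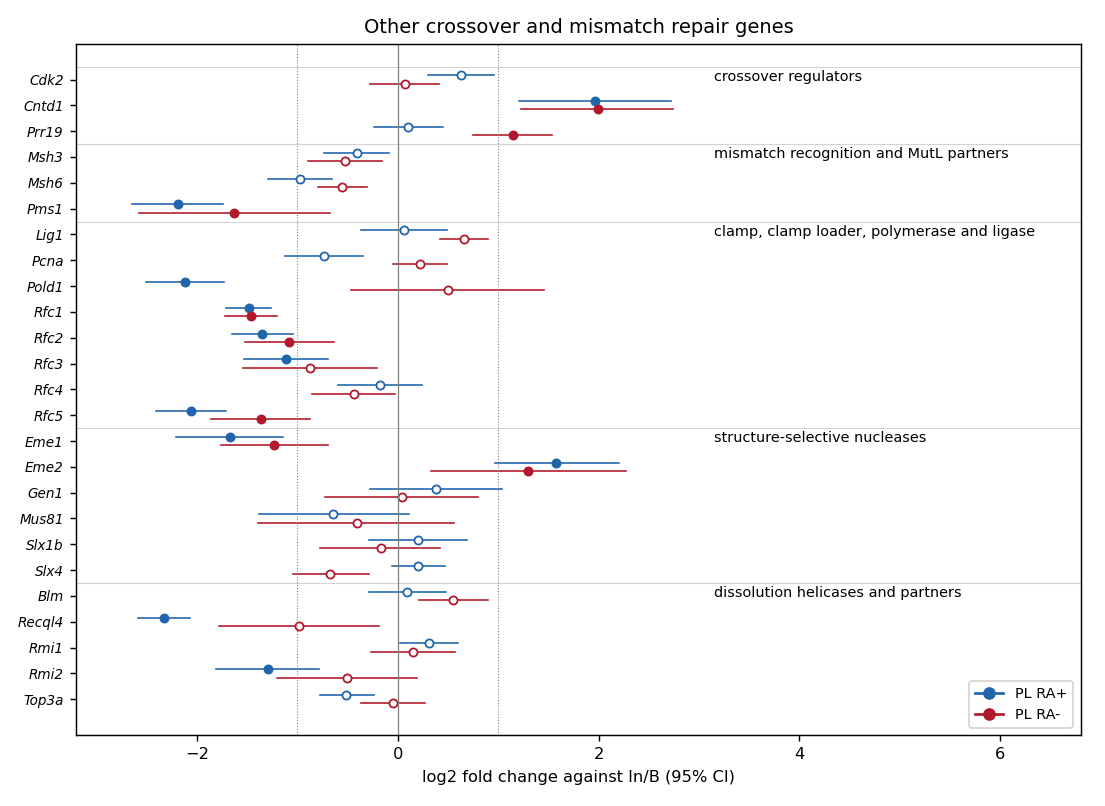
Fitted log2 fold changes from In/B cells of 25 of the 27 other crossover and mismatch repair genes, grouped by role, in RA-sufficient (PL RA+) and RA-deficient (PL RA-) PL cells, with 95% intervals; filled symbols are called genes and vertical lines mark 0 and the size required for a call. Of the 8 clamp, clamp loader, polymerase and ligase genes, 5 are called lower with RA and 0 higher, where 19.3% of all genes were called lower. Recql4 is drawn with the dissolution helicases only as a gene of the RecQ family.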

How the data were processed

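Libraries were made with a stranded mRNA kit and sequenced as single reads of 75 bp. According to the methods, the authors trimmed reads with cutadapt 1.9, discarded reads of a quality under 20, aligned them to mm9 with STAR 2.5.2b and counted them per gene with featureCounts. The deposited values are raw gene counts in one table, and the annotation and strand setting of the counting are not given in the sources used here.

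The 9 genes and all lists were chosen with earlier results of these data known. Groups were compared in pairs (6 libraries a fit) with edgeR 4.0.16 in R 4.3.3 by the quasi-likelihood test, after filterByExpr and TMM scaling, with Benjamini-Hochberg adjustment over all genes tested. Fold changes use scaling within a pair and CPM scaling over all 9 libraries, so small differences can take another sign. All 9 genes were named; of the wider list, up to 4 called genes in each direction with the lowest p and the partners of a member were named, and the 2 nearest profiles to each gene; some genes that this rule would name are not reported here, though the counts include them. Positions come from GENCODE M1 on mm9 and promoters from the RefSeq table for GRCm38.p6. The code was tested on simulated counts. Alternatives were RLE scaling, library totals, other filters, all 9 libraries in one fit, a replicate block, DESeq2 1.42.0, other thresholds and leaving out libraries.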

Additional observations from a re-analysis of the deposited data

How the results depend on the processing

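From In/B to RA-sufficient PL cells, 6 of the 8 genes were called, and 6 to 7 when a library was left out; from In/B to RA-deficient PL cells 5 were called, and 5 in each such fit. Tested against a fold change of 2, 3 genes were called in the latter comparison. Between the PL groups Tex11 was called alone, also with each library left out (log2 difference 1.04 to 1.16), but 0 genes were called with library totals only, in the test against a fold change of 2, or without both RA-deficient libraries high in Kit, where a single library is left.

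Of the 27 other genes, 9 were called from In/B to RA-deficient PL cells: 16 by adjusted p alone, 2 in the test against a fold change of 2 and 14 without both libraries high in Kit. Between the PL groups 1 was called: 2 with RLE scaling, library totals, a filter at a mean of 50 counts, one fit of all 9 libraries, the replicate block or DESeq2, 3 with no filter, 5 by adjusted p alone, 0 in the test against a fold change of 2, and 0 (without RA-sufficient replicate 2) to 4 (without RA-deficient replicate 3) with a library left out.

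Small log2 fold changes turned sign. From In/B to RA-deficient PL cells that of Ccnb1ip1 was -0.30 with library totals, -0.01 with no filter, -0.12 with all 9 libraries, -0.01 with the replicate block, -0.07 without both libraries high in Kit and -0.19 to 0.15 with a library left out, and that of Tex11 was -0.30, -0.01 and -0.11 under the first 3, -0.22 without both libraries high in Kit and -0.11 to 0.10 with a library left out. Between the PL groups that of Pms2 was -0.20 to 0.04 with a library left out. Without both libraries high in Kit it was 0.16 for Pms2, 0.18 for Msh4, 0.28 for Hfm1 and -0.28 for Exo1. From In/B to RA-deficient PL cells Exo1 was called with library totals (-1.01), and Pms2 was not (0.88).

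Library totals moved the median log2 fold change of all genes from 0.00382 to -0.312 (RA-deficient PL against In/B) and from -0.089 to -0.272 (between the PL groups), and the share of calls that were higher from 49.1% to 28.9% and from 28.8% to 17.5%. Over all genes, 3446 calls from In/B to RA-deficient PL cells became 1207 in the test against a fold change of 2, 5459 by adjusted p alone and 6025 without both libraries high in Kit. The 2383 calls between the PL groups became 741, 3629 and, with a library left out, 1190 to 4484. Same-numbered libraries did not deviate together (r from -0.252 to 0.117). With 3 libraries a group, this check cannot exclude that libraries of the same number were prepared together. The replicate block called 6, 5 and 1 of the 8 genes in the 3 comparisons. The cause of these changes was not tested. With 3 libraries a group, the median SE over all genes was 0.244 to 0.339 on the log2 scale.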
